A study of Mus musculus with 24 samples.

Results

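The GATA factors are zinc finger transcription factors that bind the DNA letters GATA, and mammals have 6 of them, Gata1 to Gata6. Gata1 drives the development of red cells, megakaryocytes and mast cells, Gata2 keeps blood progenitors, and both serve in blood. Gata3 acts in T cells, sympathetic neurons, the inner ear and the kidney duct, while Gata4, Gata5 and Gata6 act in the heart and in tissues of the gut tube and extraembryonic endoderm. In the fetal liver the blood members meet the endoderm and mesenchyme members in a single organ, since the liver is then the main site of red cell production.

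All 6 family members, chosen by name as the target IDs GATA1 to GATA6 of the deposited table, are described here out of 31483 target IDs (a target ID is a transcript target read by 1 or more probes). Gata1 was read by 2 probes and the other members by 1 each. Their levels were used neither to choose them nor to order them. Illumina bead arrays measured 24 samples in 8 groups of 3, all taken from C57BL/6 JAX littermates. At embryonic day (E) 8.5 and again at E9.5 the sample was the whole embryo, and on E11.5 and E12.5 it was the liver, each from wild-type and from Cirh1a+/- animals. A β-Geo gene trap in 1 allele of Cirh1a made the heterozygotes, and Cirh1a encodes cirhin, a protein of the machinery that builds the small ribosomal subunit, so every comparison of genotypes is of a partial loss and not of a null. Whether animals were pooled for a sample is not given in the labels, and p-values measure the spread between samples, which may in part be technical.

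The trap was visible on the arrays. The log2 level of Cirh1a was 10.83 ± 0.17 (SD, n = 3) in wild-type and 9.89 ± 0.03 (n = 3) in heterozygote E8.5 embryos, 11.75 ± 0.02 and 10.89 ± 0.14 at E9.5, and 10.38 ± 0.08 and 9.46 ± 0.18 at E12.5, and no value at E11.5 was used here. At E8.5 all wild-type arrays carried Y-linked signal and all heterozygote arrays Xist, so genotype and sex cannot be told apart at that stage, which bears on Gata1 as an X-linked gene. At E9.5 each array carried both signals. The level of Xist was 10.12, 11.13 and 11.09 in wild types and 9.34, 10.14 and 10.05 in heterozygotes, and that of the Y-linked Eif2s3y was 9.32, 8.65 and 9.24 and then 9.68, 9.35 and 9.38. The genotypes overlapped for Xist but not for Eif2s3y. In E11.5 livers Xist was high in wild-type replicate 2 (10.06) and in heterozygote replicates 1 and 3 (9.71 and 10.06). Eif2s3y was low on the same arrays (6.87, 6.99 and 6.81). In E12.5 livers only heterozygote replicate 1 had high Xist (7.90) and low Eif2s3y (2.62). The mix of sexes thus differed between genotypes in the livers as well. Red cell markers lay above the stage median in 11 of 11 cases at all stages. The stage median is taken over the means of all target IDs on the 6 arrays of a stage. A target ID is compared with it by its own mean. Hepatoblast markers lay above it in 10 of 11 cases in E11.5 liver and 9 of 10 in E12.5 liver. Among them Fgb ranked only at percentiles 30.6 and 27.1 there. A single distribution of values is shared only between the arrays of E8.5 and those of E12.5. Levels were therefore tested across stages only between those 2, and at E9.5 and E11.5 a level is described by its percentile, the rank of the target ID within its array among the 25206 with values on all arrays. At E8.5 a set of 222 target IDs lay below the median although they ranked at the top of the arrays (upper 20%) at the other stages, and 92.3% of them were read by several probes, against 46.0% of the other 3739 target IDs in that range. Of the GATA factors only Gata2 and Gata6 ranked in that range at the other stages, and neither was among the 222. Gata1, which was read by 2 probes, could not enter the set, since its percentile at E9.5 was 47.9. Whether its low E8.5 level is of this kind was not tested.

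The genes lie on separate chromosomes or far apart. In the GRCm38.p6 assembly Gata1 spans chrX:7959260-7976663, Gata2 chr6:88193891-88207032, Gata3 chr2:9857078-9887953, Gata4 chr14:63198914-63271712 and Gata5 chr2:180325088-180335503. The 250 bases before a RefSeq start of transcription are printed for 3 members. These are the member with the greatest rise and the 2 members with the greatest falls between E8.5 embryo and E12.5 liver. The bases run 5′ to 3′ on the coding strand (minus for all 3), with CG dinucleotides in capitals. The stretches occupy chrX:7967911-7968160, chr2:9878601-9878850 and chr2:180334680-180334929. Each lies inside the span of its gene, downstream of the 5′ end of that span, so a start further upstream is not covered.
Gata1: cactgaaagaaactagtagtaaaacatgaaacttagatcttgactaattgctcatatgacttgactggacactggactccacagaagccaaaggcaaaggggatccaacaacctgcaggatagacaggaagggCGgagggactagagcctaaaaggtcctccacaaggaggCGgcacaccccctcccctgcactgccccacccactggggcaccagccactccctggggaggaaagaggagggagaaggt
Gata3: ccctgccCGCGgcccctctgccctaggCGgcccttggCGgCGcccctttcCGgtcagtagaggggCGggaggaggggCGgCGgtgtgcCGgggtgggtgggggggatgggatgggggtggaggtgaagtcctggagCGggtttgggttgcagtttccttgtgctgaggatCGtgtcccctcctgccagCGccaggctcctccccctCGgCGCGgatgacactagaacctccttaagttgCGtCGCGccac
Gata5: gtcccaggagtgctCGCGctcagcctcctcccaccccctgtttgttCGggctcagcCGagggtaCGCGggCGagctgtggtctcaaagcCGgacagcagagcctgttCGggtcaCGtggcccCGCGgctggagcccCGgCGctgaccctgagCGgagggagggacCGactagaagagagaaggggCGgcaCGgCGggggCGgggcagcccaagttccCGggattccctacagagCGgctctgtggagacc
The Gata1 stretch has 2 CG dinucleotides and 54.0% G or C. The Gata3 stretch has 19 and the Gata5 stretch 22, each with 70.0% G or C, against a median of 6 and 52.4% over 32851 promoters of the same length. Both Gata2 starts resemble Gata3 and Gata5 in this respect, with 22 and 24 CG dinucleotides. The hexamer AGATAA was not found on either strand of these 5 stretches, and neither was its form AGATAG, nor the hexamer TGATAA with a leading T, nor its form TGATAG, whereas 26.5% of all promoters hold at least 1 of the 4, and these letters may still occur outside the window. 

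Gata1 (target ID GATA1), the red cell and megakaryocyte member, was the member that rose. Its log2 level at E8.5 was 2.97, 3.23 and 2.33 in the wild-type embryos and 2.69, 4.1 and 3.6 in the heterozygotes. At E12.5 it was 7.89, 8.03 and 7.95 in wild-type livers and 7.81, 7.94 and 7.96 in heterozygote livers. No E12.5 array overlapped an E8.5 array. The difference was 4.78 on the log2 scale (SE 0.225), or 27.4-fold (95% interval 19.4 to 38.7), with limma's adjusted p = 3.8e-09. Because a large part of all transcripts differed between a whole embryo and a liver (73.6% of 14625 target IDs passed, 29.3% higher and 44.3% lower), that Gata1 passed says little by itself. Its size stood further out, as 4.29% of the target IDs tested rose more. In whole tissue, more cells of a type and more RNA per cell cannot be told apart.

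Between these ends, the Gata1 percentile fell into separate ranges for embryo and liver. It was 55.5 ± 10.3 (SD, n = 6) at E8.5 and 47.9 ± 4.66 at E9.5, with overlapping arrays, and 82.8 ± 1.26 at E11.5 and 85.1 ± 0.350 at E12.5. A set of 1082 olfactory receptor target IDs, genes that embryos and livers should hardly use, gave a reference for background. Gata1 did not stand above the rank below which 95% of them lay at E8.5 (55.9) or at E9.5 (49.8), and it stood above all of them at both liver stages. The 27.4-fold difference is therefore measured against an embryo level within the range of that reference. The log2 values at E9.5 were 6.40, 6.57 and 6.56 in wild type and 6.68, 6.68 and 6.65 in heterozygotes. At E11.5 they were 9.0, 8.71 and 8.80 in wild type and 8.98, 9.18 and 8.80 in heterozygotes.

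Gata2 (target ID GATA2), the member of blood progenitors, mast cells and endothelium, did not pass the test between the 2 ends. Its log2 level was 7.32, 7.12 and 7.26 in wild-type and 7.43, 7.31 and 7.62 in heterozygote embryos at E8.5. In E12.5 livers it was 7.34, 7.36 and 7.11 in wild type and 7.21, 7.54 and 7.38 in heterozygotes. The arrays of both stages covered the same range, and the difference was -0.02 (SE 0.0983, 95% interval -0.23 to 0.20, limma adjusted p = 0.889). The percentile was 82.2 ± 0.831, 80.5 ± 0.876, 85.0 ± 1.25 and 82.1 ± 0.734 (SD, n = 6) in order of stage. The E11.5 liver ranks lay above those of both neighbours with no overlap. Log2 values at E9.5 were 9.14, 9.30 and 9.27 in wild type and 9.22, 9.15 and 9.47 in heterozygotes, and at E11.5 they were 9.25, 9.04 and 9.10 and then 9.18, 9.16 and 9.57. Probes differ in brightness, so an order of ranks between genes is not an order of transcript amounts. In both embryo stages Gata2 ranked above Gata1 on every array, and at E12.5 the order was turned, with Gata1 above Gata2 on every array.

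Gata3 (target ID GATA3), the member of sympathetic, sensory and T lineages, fell furthest. It measured 7.36, 7.76 and 8.03 on the log2 scale in wild-type and 7.45, 7.64 and 7.59 in heterozygote embryos at E8.5. In E12.5 livers it measured 3.98, 4.36 and 4.53 in wild type and 3.78, 4.40 and 3.68 in heterozygotes. The lowest embryo was far above the highest liver. Gata3 fell by 3.51 (SE 0.163, limma adjusted p = 3.39e-09) to 8.75% of its E8.5 level (95% interval 6.82% to 11.2%), and 3.13% of target IDs tested fell more. The percentile went from 83.6 ± 1.16 at E8.5 and 80.3 ± 0.591 at E9.5 to 65.4 ± 3.21 at E11.5 and 66.6 ± 2.09 at E12.5 (SD, n = 6), with no overlap between embryo and liver. In liver it still lay above 95% of the olfactory receptors.

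Gata4 (target ID GATA4), which acts in heart, foregut and liver mesenchyme, was low throughout. Its log2 level at E8.5 was 3.41, 2.81 and 3.15 in wild type and 4.33, 3.03 and 4.40 in heterozygotes, and at E12.5 it was 2.44, 2.60 and 2.38 and then 2.54, 2.72 and 1.61. Gata4 fell by 1.14 (SE 0.266, limma adjusted p = 0.00238), to 45.3% (95% interval 30.1% to 68.2%) of the E8.5 level, and 23.3% of target IDs tested fell more than Gata4. In wild types alone it fell by 0.65 (limma adjusted p = 0.0198). The rank was 60.9 ± 6.28 and 60.3 ± 2.73 in the embryos of E8.5 and E9.5, and 45.9 ± 8.69 and 38.6 ± 16.3 in the livers of E11.5 and E12.5 (SD, n = 6). It stood above 98.2% and 99.2% of the olfactory receptors in embryos and above only 83.5% and 72.3% in livers, so the liver values give no measurable level above that background. The wide spread at E12.5 comes with heterozygote replicate 3, at percentile 6.24.

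Gata5 (target ID GATA5), known in heart and endoderm, also fell, from a higher rank than Gata4. The log2 level was 5.57, 5.86 and 5.86 in wild-type and 6.39, 5.56 and 6.28 in heterozygote embryos at E8.5, and 3.31, 3.29 and 3.39 and then 2.82, 3.68 and 3.99 in the livers at E12.5. No liver reached the lowest embryo. The fall was to 17.6% (95% interval 12.9% to 24.1%) of the E8.5 level, a difference of -2.50 (SE 0.205, limma adjusted p = 5.07e-07), and 7.33% of target IDs tested fell more. The mean rank was lower at each step, from 75.5 ± 1.68 to 68.3 ± 1.55 already between the 2 embryo stages without overlap, then to 62.0 ± 4.1 and 60.8 ± 4.46 with overlapping arrays (SD, n = 6).

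Gata6, required in extraembryonic endoderm and active in heart and gut tube (chr18:11052510-11085636, GRCm38.p6, target ID GATA6), ranked highest of the 6 on the arrays of each stage. The log2 level was 10.23, 10.01 and 10.15 in wild-type and 10.33, 10.28 and 10.20 in heterozygote embryos at E8.5. In the E12.5 livers it was 9.21, 9.08 and 9.30 in wild type and 9.10, 9.77 and 9.42 in heterozygotes. The groups did not overlap. Gata6 fell by 0.89 (SE 0.115, limma adjusted p = 2.84e-05), to 54.1% (95% interval 45.4% to 64.6%). The median difference over all target IDs tested was -0.25, and 29.2% of them fell more than Gata6. Its percentile stayed high at 94.2 ± 0.345, 93.5 ± 0.632, 96.6 ± 0.313 and 91.0 ± 0.981 (SD, n = 6), with its peak in E11.5 liver and no overlap with E9.5 or E12.5. An exact permutation test of the E12.5 against the E8.5 percentile within genotypes (two-sided, smallest possible p 0.005) gave p = 0.005 for each member except Gata2, for which p = 0.85. This test was run for the members only, so the share of all target IDs reaching 0.005 is not known. Since 73.6% of 14625 target IDs passed limma's test in this contrast, reaching it says little by itself.

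**Figure D1:**
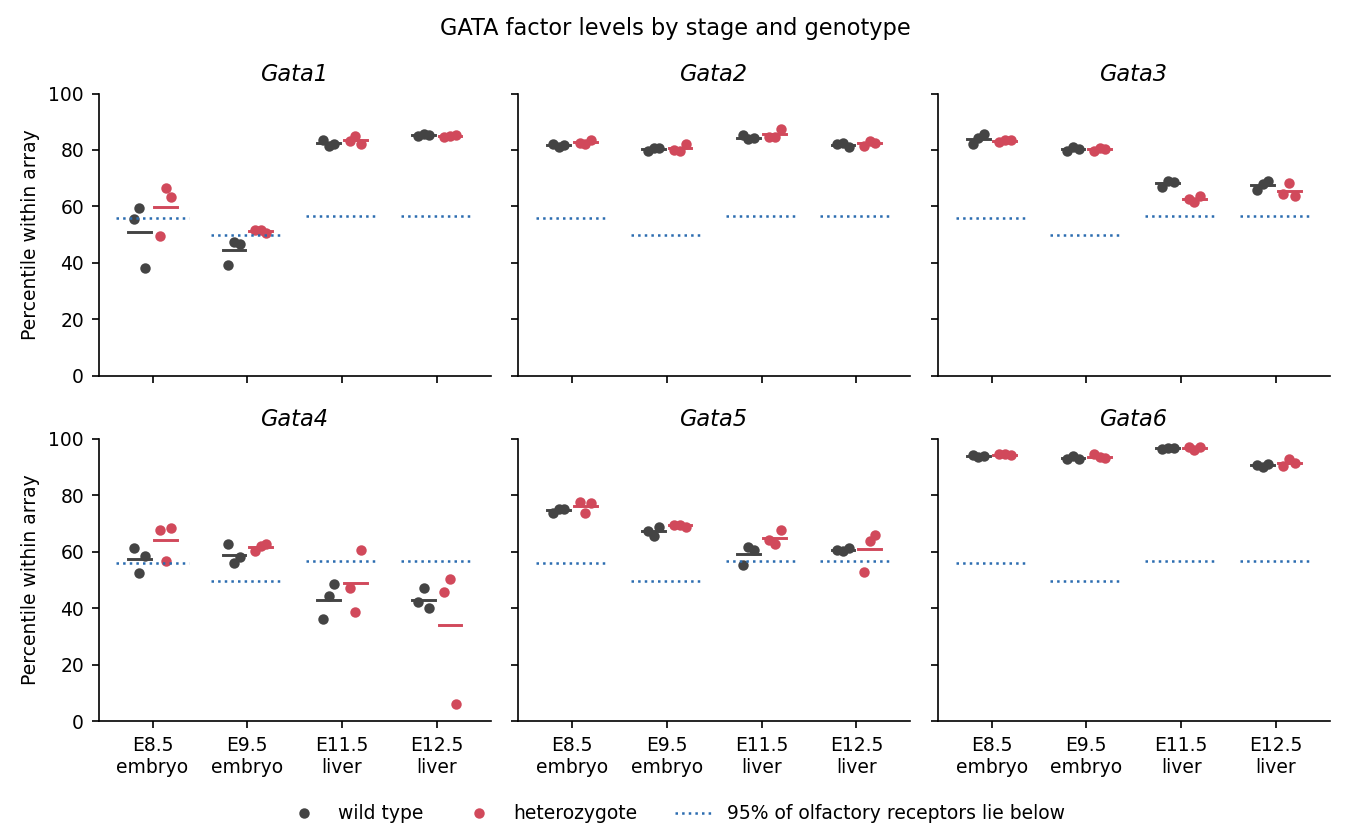
The vertical axis gives the percentile of each GATA factor within its array, the horizontal axis the 4 stages, points are single arrays (3 per genotype), and bars are group means. Gata1 is near the dotted olfactory receptor reference in embryos and reaches 82.8 and 85.1 in liver, Gata3, Gata4 and Gata5 are lower in liver, and Gata2 and Gata6 have a percentile of at least 79.6 on all arrays.

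The genes around each factor, taken from lists chosen with earlier results of these data known, were measured in the same contrast of E12.5 liver and E8.5 embryo. Over all target IDs tested 29.3% were higher and 44.3% lower, with a median of -0.25. Some genes lay, at the stage where they were low, at or under the rank below which 95% of the olfactory receptors lay (55.9 at E8.5 and 56.8 at E12.5). For these the ranks are given in place of a size, and they passed the filter on level through the stage where they were high. Since most target IDs low only at E8.5 were read by several probes, counts over target IDs of 1 probe stand beside the others. The exception is the zinc finger list, with 1 such target ID. Over all 8878 target IDs of 1 probe tested, 21.6% were higher and 44.3% lower.

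Of 25 erythroid genes known as Gata1 targets and tested, 24 rose and 0 fell, with a median of 5.24. The Rhesus-associated glycoprotein Rhag rose by 6.39 and Alas2, the first enzyme of heme synthesis in red cells, by 6.30. Trim10 and the membrane skeleton anchor Ank1 stood at percentiles 33.7 and 39.9 at E8.5 and at 97.7 and 90.8 in the liver, and 3 of the 24 began within the reference. Among 16 megakaryocyte and mast cell genes 14 rose and 1 fell (median 5.39), and 7 of the 14 began within the reference. The platelet glycoprotein Gp5 rose by 6.90, while the platelet chemokines Pf4 and Ppbp went from percentiles 31.8 and 27.8 to 97.8 and 96.8. Of 15 cofactors and partners of the blood complexes 12 rose and 0 fell (median 2.87), with Nfe2 at 6.14, the erythroid factor Klf1 at 5.63 and Gfi1b at 5.50, and with the coactivator Ep300 going from percentile 35.1 to 80.5. Nfe2, Klf1 and Gfi1b are also among the 24 erythroid genes, and Nfe2 among the 14 megakaryocyte and mast cell genes. Other genes are shared between lists too, so the counts of the lists are not independent. Of the genes named here Trim10, Ank1, Rhag, Ppbp, Gfi1b and Ep300 are read by several probes. Over target IDs of 1 probe alone, 9 of 9 erythroid genes, 8 of 9 megakaryocyte and mast cell genes and 8 of 9 partners rose. Heterozygote replicate 1 at E8.5 had red cell markers at -2.89 from the stage mean on the log2 scale, when the other 5 arrays were at 0.03 to 0.99. The summed level of the 11 red cell markers was 15.2 to 16.2 in wild types and 12 to 16.3 in heterozygotes. Without that array 24 of 25 erythroid genes still rose, with a median of 4.68.

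The progenitor and endothelial genes linked to Gata2 went both ways, with 8 higher and 6 lower of 16 tested and a median of 0.43. Over target IDs of 1 probe 5 were higher and 4 lower of 10. The blood factors Tal1 and Lyl1 rose by 4.15 and 4.06. Kit, the stem cell factor receptor, which is read by several probes, went from percentile 31.6 to 82.6, and Etv2, an early regulator of blood and vessel precursors, from 96.0 to 40.2.

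Of 18 heart genes linked to Gata4, Gata5 and Gata6, 17 fell and 1 rose (median -3.31), and 12 of 12 fell over target IDs of 1 probe. The atrial light chain Myl7 fell by 5.99 and Myl4 fell by 5.6, whereas the contractile gene Myh6 went from percentile 89.1 to 28.0 and the natriuretic peptide Nppa from 88.3 to 53.1. The cofactor Zfpm2 was the gene that rose, from a rank within the reference. In the liver 10 of the 17 that fell lay within the reference. Among 19 endoderm genes 12 fell and 4 rose (median -1.0), and over target IDs of 1 probe 8 of 13 fell and 4 rose. The visceral endoderm uptake receptor Amn fell by 5.75, and its partner Cubn went from percentile 83.1 to 15.1, the apolipoprotein Apoa4 from 86.5 to 25.9 and the threonine enzyme Tdh from 90.3 to 24.9, while alpha-fetoprotein, Afp, rose by 3.13. Of 16 genes linked to Gata3, 12 fell and 2 rose (median -2.66), and 10 of the 12 lay within the reference in the liver. Over target IDs of 1 probe 5 of 7 fell and 0 rose. The limb and ear growth factor Fgf10 fell by 4.97 and Isl1 fell by 4.21. Tfap2c went from percentile 91.2 to 30.2 and the kidney duct factor Lhx1 from 78.7 to 16.3.

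Liver mesenchyme and mesothelium genes gave 5 higher and 8 lower of 15 tested (33.3% and 53.3%, median -0.82), shares near those of all target IDs. Over target IDs of 1 probe they gave 1 higher and 6 lower of 9 (median -1.08). Bmp4 fell by 5.34. Vcam1, read by several probes, went from percentile 23.3 to 87.3. The list of GATA-type zinc finger proteins outside the family, which sit in chromatin complexes, gave 1 higher (Mta2, 0.45) and 4 lower of 7 tested, but it held Arid1a, which has no such zinc finger. Without Arid1a 3 of 6 were lower (Mta1 -1.52, Trps1 -1.32 and Gatad1 -1.0), also near the share of all target IDs. Whole embryos contain a heart and other tissues that a liver sample lacks, so the tissue sampled and the day of gestation cannot be told apart in any of these differences.

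**Figure D2:**
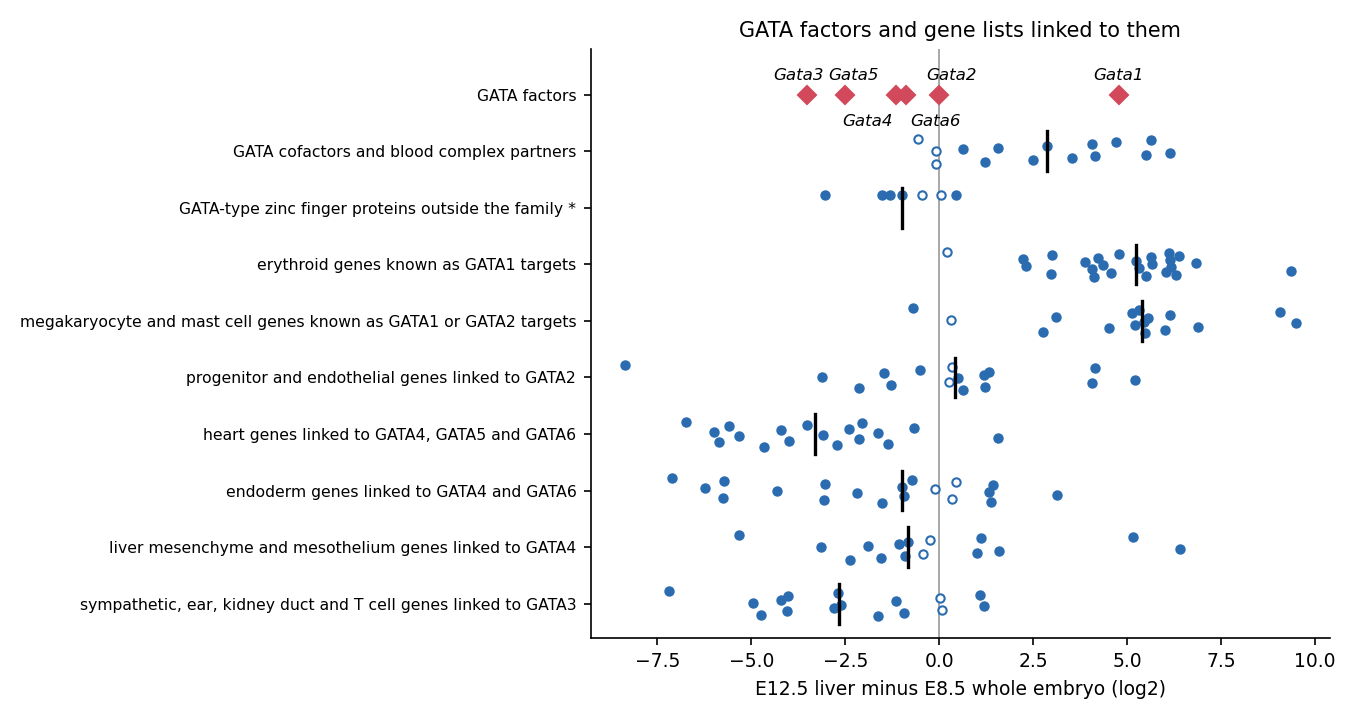
The horizontal axis gives the log2 difference of E12.5 liver minus E8.5 whole embryo, diamonds are the 6 GATA factors, circles the tested genes of each list (filled where limma's adjusted p was under 0.05), and black bars list medians. The list marked with an asterisk includes Arid1a, which has no GATA-type zinc finger. Gata1 is at 4.78, where the erythroid and megakaryocyte lists have medians of 5.24 and 5.39, and Gata2 is near 0. Gata3 is at -3.51 and Gata5 at -2.50, and the heart list has a median of -3.31. Gata4 at -1.14 and Gata6 at -0.89 lie nearer the medians of the endoderm list (-1.0) and the liver mesenchyme list (-0.82).

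The patterns of the members over the 24 arrays were set against 16401 other target IDs by Pearson's correlation of percentiles, as a description over arrays that share stages. Those most like Gata1 were Tmem14c (0.98), a mitochondrial transporter of heme synthesis, Was (0.98), the blood cell actin regulator, and Smim1 (0.97), a red cell membrane protein. Gata3 was most like Tbl1x, Mkrn3 and Wasl (each 0.98), and Gata5 like Fam131b (0.93), 9130401M01Rik (0.93) and the muscle enzyme Pgam2 (0.92). The closest to Gata6 were the secreted glycoprotein Fstl1 (0.94), Mrps5 (0.94) and Otub1 (0.93). Gata2, with Ino80c at 0.90, and Gata4, with the intermediate filament protein Synm at 0.86, had no counterpart as close.

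The second comparison asked whether losing 1 working copy of Cirh1a moved any GATA factor within a stage. None passed limma's adjusted threshold of 0.05 within any stage. Of the target IDs tested, 0.0238% passed among the E8.5 embryos, 0.00635% among the E9.5 embryos and 0% in each of the liver stages. By the unadjusted p under 0.05, 475 of 12603, 1742 of 15741, 414 of 15734 and 486 of 12603 target IDs passed in order of stage. The counts expected by chance were 630, 787, 787 and 630. Gata5 at E9.5 and Gata3 at E11.5 were among those that passed. The means of Gata1 at E9.5 and of Gata4 at E11.5 and E12.5 lay below the stage median, so these were not among the target IDs tested. With 3 arrays against 3, an exact permutation test cannot give p under 0.1.

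Among the blood members, Gata1 was higher by 0.62 on average in E8.5 heterozygotes (SE 0.407, limma adjusted p = 1.00), with overlapping arrays. The heterozygote with the lowest Gata1, replicate 1, was the array with low red cell markers. Without it the difference was 1.01 (limma unadjusted p = 0.0230, adjusted p = 1.00), and without heterozygote replicate 2 it was 0.30. At E9.5 all 3 heterozygotes (6.68, 6.68 and 6.65) were above all wild types (6.40, 6.57 and 6.56), a difference of 0.16 (SE 0.0676) at a level within the olfactory background (exact permutation p = 0.1), where the groups did not overlap for 17.6% of target IDs tested. In liver the differences were 0.15 (SE 0.115) at E11.5 and -0.05 (SE 0.0938) at E12.5. The E12.5 interval, -0.28 to 0.18 on the log2 scale, is narrow enough to leave out a change of Gata1 in liver of the size Cirh1a showed at that stage. Gata2 differed by 0.22 (SE 0.152), 0.04 (SE 0.0868), 0.17 (SE 0.120) and 0.11 (SE 0.130) in order of stage, with overlapping arrays each time.

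Gata3 at E11.5 had the smallest unadjusted p of any member. It measured 7.32, 7.46 and 7.44 in wild-type livers and 7.17, 7.13 and 7.18 in heterozygote livers on the log2 scale. The groups did not overlap, which was so for 8.19% of target IDs tested at that stage. The difference was -0.25 (SE 0.0744, limma unadjusted p = 0.00842, adjusted p = 1.00, exact permutation p = 0.1). Sympathoadrenal and placode markers, of tissue in which Gata3 is active, were at -0.20, 0.72 and -0.03 from the stage mean in wild types. In heterozygotes they were at -0.34, -0.10 and -0.05. Wild-type replicate 2, at 0.72, had the highest Gata3 (7.46), and replicate 3, at -0.03, was close to it in Gata3 (7.44). Of these markers 2 of 7 lay above the stage median, and the deviations are means over those 2. The summed log2 level of all 7 was 9.90 to 10.7 in wild types and 9.81 to 9.96 in heterozygotes. The part of the markers in the result was not tested. Without any 1 array the Gata3 difference ranged from -0.29 to -0.23. At E8.5 Gata3 differed by -0.16 (SE 0.203), at E9.5 by 0.01 (SE 0.0691), with values of 9.14, 9.34 and 9.21 against 9.16, 9.31 and 9.25, and at E12.5 by -0.34 (SE 0.239).

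Gata5 was higher in heterozygotes on average at each stage. At E9.5 it measured 7.51, 7.35 and 7.65 in wild type and 7.77, 7.76 and 7.68 in heterozygotes, without overlap, as for 17.6% of target IDs tested at that stage. The difference was 0.23 (SE 0.0776, limma unadjusted p = 0.0149, adjusted p = 0.313). It was 0.11 (limma unadjusted p = 0.238) with the level of Eif2s3y as a covariate and 0.15 without wild-type replicate 2. Visceral endoderm markers moved in the same direction at E9.5, at -0.42 to -0.26 of the stage mean in the wild types and at 0.84, 0.27 and -0.05 in the heterozygotes. All 8 markers lay above the stage median, and their summed log2 level was 12.6 to 12.9 in wild types and 13.1 to 14.1 in heterozygotes. Other lists also separated the genotypes at E9.5. Hepatoblast markers were at -0.40 to -0.34 in wild types and -0.07 to 0.82 in heterozygotes, and cardiac markers at -0.10 to -0.03 and -0.01 to 0.20. Neural markers were higher in wild types, at 0.07 to 0.12 against -0.17 to -0.05, as were megakaryocyte markers, at -0.01 to 0.42 against -0.21 to -0.10. Of 22 endoderm genes linked to Gata4 and Gata6, 19 had a positive difference at E9.5 and 14 an unadjusted p under 0.05, although 0 passed after adjustment (median 0.17). Among all 15741 target IDs tested at that stage, 50.02% had a positive difference and 1742 a limma unadjusted p under 0.05. The difference in shares was not tested. The part of the marked cell types in the Gata5 difference was not tested either. 

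At E11.5 Gata5 measured 6.98, 7.13 and 7.09 in wild-type livers and 7.21, 7.17 and 7.36 in heterozygote livers. The groups again did not overlap, as for 8.19% of target IDs tested at that stage. The difference was 0.18 (SE 0.0841, limma adjusted p = 1.00). The highest array, heterozygote replicate 3, had cardiac markers 2.15 above the stage mean, when the other 5 were between -0.80 and 0.05, and it was also highest for Gata4 (7.09, against 6.77 to 6.89 on the other 5) and Gata2. Of the 8 cardiac markers 5 lay above the stage median, and the summed log2 level of the 8 was 10.3 to 10.9 in wild types and 10.4 to 13.9 in heterozygotes. Without that array the Gata5 difference was 0.12 and the Gata2 difference 0.04. At E8.5 and E12.5 the Gata5 differences were 0.31 (SE 0.253) and 0.17 (SE 0.296), with overlapping arrays.

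Gata4 was 0.80 higher in E8.5 heterozygotes (SE 0.398, limma adjusted p = 1.00), with replicates 1 and 3 at 4.33 and 4.40 and replicate 2 at 3.03, inside the wild-type range. Without replicate 2 the difference was 1.25, and without replicate 3 it was 0.56. In heterozygote replicates 1, 2 and 3 cardiac markers were at -0.51, 0.23 and -0.32 from the stage mean and visceral endoderm markers at 0.10, -0.13 and 0.45, and their part in the difference was not tested. At E9.5 it was 7.15, 6.83 and 6.91 in wild type and 7.01, 7.12 and 7.14 in heterozygotes, a difference of 0.13 (SE 0.0841). Gata6 gave 0.14 (SE 0.137), 0.13 (SE 0.0959), 0.04 (SE 0.0977) and 0.24 (SE 0.184) in order of stage. Its values were 11.36, 11.61 and 11.38 against 11.77, 11.52 and 11.45 at E9.5, and 11.68, 11.78 and 11.76 against 11.88, 11.58 and 11.87 at E11.5, overlapping at each stage.

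**Figure D3:**
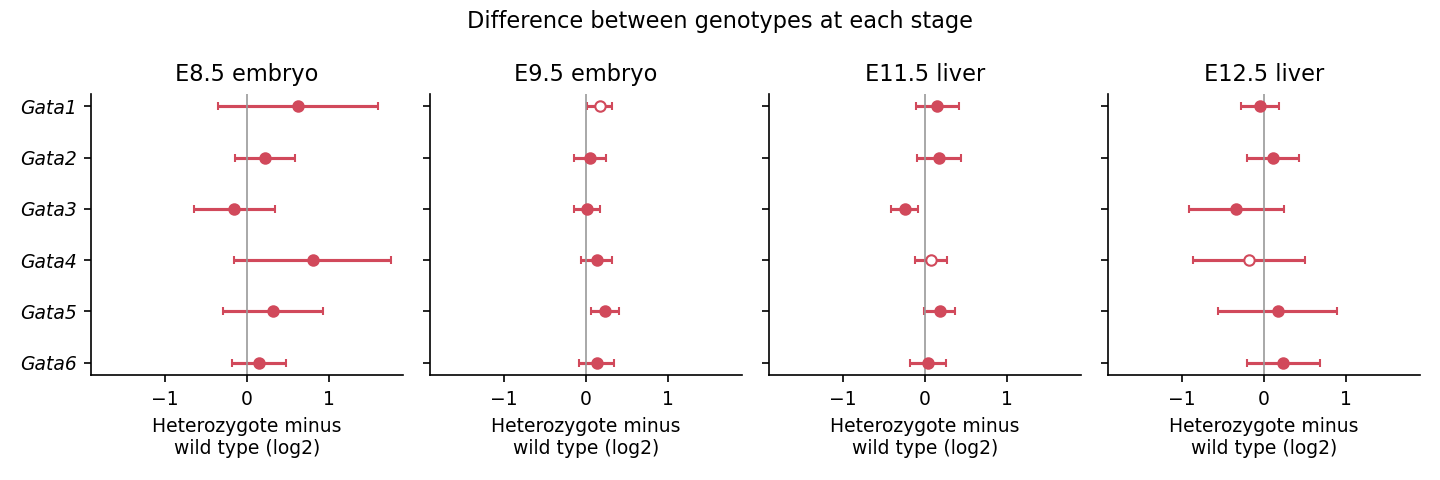
Each panel is a stage, and the horizontal axis gives the log2 difference of heterozygote minus wild type. Points are the fitted differences (n = 3 arrays per genotype) and bars their 95% intervals, with open points for target IDs whose mean was at or below the stage median. The intervals are widest at E8.5, where Gata4 is at 0.80 and Gata1 at 0.62, and those of Gata5 at E9.5 and Gata3 at E11.5 leave out 0 before adjustment.

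Averaged over the 4 stages, the difference was positive for 5 members and negative for Gata3. The average difference was 0.22 for Gata1 (SE 0.122), 0.14 for Gata2 (SE 0.0650), -0.18 for Gata3 (SE 0.0868), 0.21 for Gata4 (SE 0.143), 0.22 for Gata5 (SE 0.110) and 0.14 for Gata6 (SE 0.0697). Without E8.5, where sex and genotype coincide, the average was 0.0084 for Gata4 and 0.09 for Gata1, and it was 0.11, -0.19, 0.19 and 0.13 for Gata2, Gata3, Gata5 and Gata6. None passed the limma test, with adjusted p from 0.926 to 0.978, and 0% of 16402 target IDs passed, with 879 at an unadjusted p under 0.05. Exact permutation within stages gave unadjusted two-sided p = 0.113, 0.0315, 0.0477, 0.215, 0.0513 and 0.0444 for Gata1 to Gata6, where the smallest possible is 1.25e-05. Heterozygote arrays lay above their stage's wild-type mean in 10 of 12 cases for Gata5, in 9 of 12 for each of Gata2, Gata4 and Gata6, and in 3 of 12 for Gata3. The effect in liver did not differ from that in embryo by the limma test for any member, and 0.0061% of target IDs passed there. That of Gata4 was -0.52 (SE 0.285, adjusted p = 0.998), but -0.18 without E8.5 and -0.85 without E9.5, and its liver values lay within the olfactory receptor reference.

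**Figure D4:**
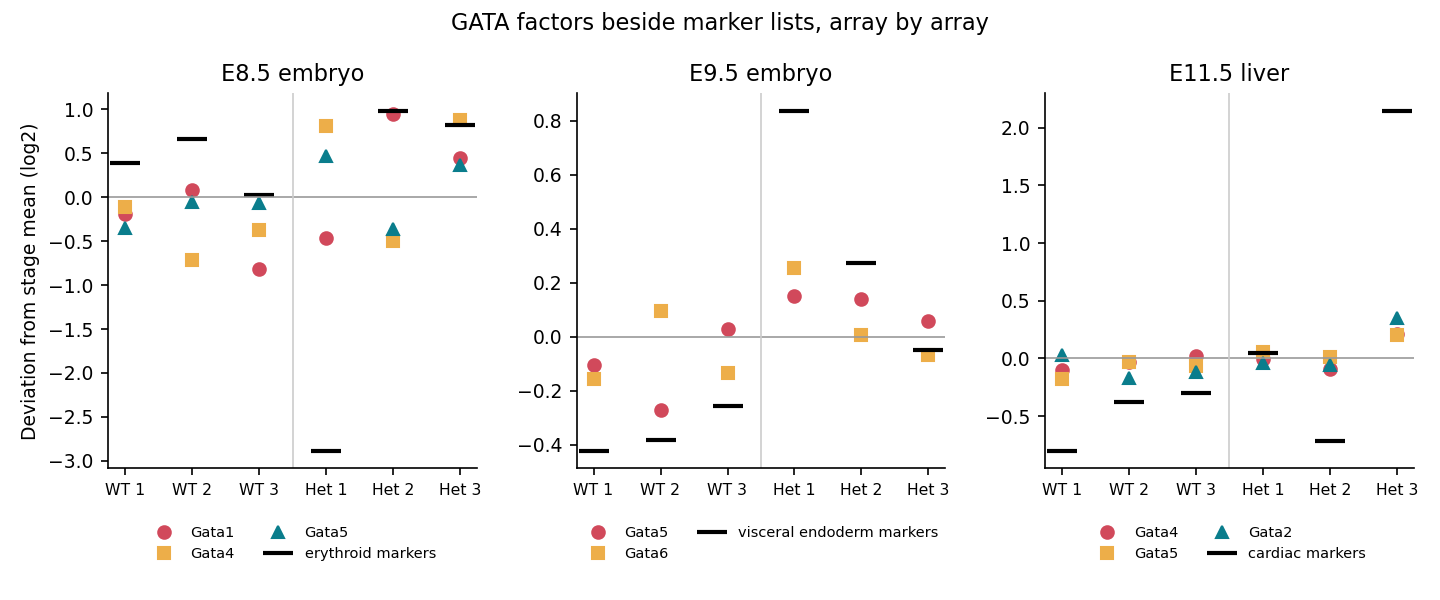
The vertical axis gives the deviation from the stage mean on the log2 scale for single GATA factors (symbols) and for the mean of a marker list (bars), with 1 position per array. Red cell markers are at -2.89 in E8.5 heterozygote replicate 1, visceral endoderm markers are higher in E9.5 heterozygotes 1 and 2 beside Gata5, and cardiac markers are at 2.15 in E11.5 heterozygote replicate 3, the array highest for Gata2, Gata4 and Gata5.

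None of the 9 gene lists had a gene past the adjusted threshold between genotypes at any stage. At an unadjusted p under 0.05, a list held 0 to 5 genes at a stage, apart from the 14 endoderm genes at E9.5. By adjusted p, 0.0238% of all target IDs tested passed at E8.5, 0.00635% at E9.5 and 0% at both liver stages. That no list gene passed therefore does not set the lists apart. By unadjusted p at E9.5, 1742 of 15741 target IDs passed, against 14 of 22 endoderm genes. The other lists ranged from 1 of 26 (erythroid) to 3 of 7 (zinc finger proteins). The lists were chosen with earlier results known, and these shares were not tested. Of the erythroid genes known as Gata1 targets, 5 of 27 had a positive difference at E11.5 (median -0.12) and 6 of 25 on average over stages (median -0.08). That average includes E8.5 heterozygote replicate 1, the array with low red cell markers. At E11.5 the megakaryocyte and mast cell list went the other way, with 14 of 15 positive (median 0.11). So did the list linked to Gata2, with 14 of 17 (median 0.06). On average over stages these 2 lists gave 8 of 16 and 12 of 18. Over all target IDs tested the positive share was 49.6% at E11.5 (median -0.00081) and 50.3% on average over stages (median 0.00056). None of these list genes passed after adjustment, and the differences in shares were not tested.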

How the data were processed

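The authors' deposited log2 values per target ID were used as given. Their background correction and normalization are not given in the sources used here, and per the labels total RNA was purified on RNeasy columns and amplified to biotinylated cRNA. The members and gene lists were chosen with earlier results of these data known. Another 48 columns, holding signal before normalization and detection p-values in 4 tables, match no sample label and were not used, so the planned detection filter became a filter on level: above the stage median (within a stage), or in at least 1 stage with values on all arrays (joint fits). Of the target IDs, 13425 matched a RefSeq symbol. Promoter sequences are RefSeq's (GRCm38.p6), and 4 of the 6 members are shown or counted from that table.

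Genotypes were compared with limma 3.58.1 in R 4.3.3 (lmFit, eBayes), two-sided, with Benjamini-Hochberg adjustment over all target IDs tested and a threshold of 0.05. Intervals are at 95%. Joint fits take 1 spread per target ID for all groups, so their p-values can be too small where the spread differs between stages. The scripts were tested on simulated data. Depth does not apply to arrays, and 3 arrays per group limit the precision. Pearson correlations between arrays of a stage were 0.9809 to 0.9975. Genes named from a list are up to 4 with the largest differences among those called, and the 3 most correlated target IDs were found for each member. Fcer1a, Zfpm2, Mta2, Afp and the marker Fgb were named after their values were seen.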

Additional observations from a re-analysis of the deposited data

How the results depend on the processing

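Under the alternatives run, 798 values of the 6 members were recomputed, of which 751 kept direction and call, 47 changed sign and 0 changed their call, and none of the 624 values of heterozygote comparisons passed. Most sign changes were of differences near 0, and their causes were not tested. They included Gata3 at E9.5 on percentiles (-0.0112), Gata6 at E11.5 (-0.0197) and Gata1 at E12.5 (0.00488) with Eif2s3y as a covariate, which was added after seeing the data, as were the restriction to target IDs of 1 probe, the olfactory receptor reference, the zinc finger list without Arid1a and the lists without E8.5 heterozygote replicate 1. For liver minus embryo they were Gata2 without E9.5 (-0.0805) or E11.5 (-0.0223), Gata6 without E9.5 (-0.00289) or E12.5 (-0.0965) and Gata5 on percentiles (1.13). Gata2 in E12.5 liver minus E8.5 embryo was 0.0398 in wild types alone, and its percentile difference was 1.30 among target IDs of 1 probe. Leaving out 1 array at a time gave ranges that crossed 0 for Gata3 at E8.5 (-0.334 to 0.00312), Gata2 (-0.0548 to 0.108) and Gata3 (-0.0365 to 0.0645) at E9.5, Gata6 at E11.5 (-0.0148 to 0.138), Gata5 at E12.5 (-0.0827 to 0.504), liver minus embryo for Gata2 (-0.0578 to 0.0575), Gata5 (-0.229 to 0.0693) and Gata6 (-0.0829 to 0.0851), Gata2 in E12.5 minus E8.5 (-0.0576 to 0.0269) and its percentile (-0.283 to 0.126). The count of all target IDs called at E8.5 (3) was 290 in the joint fit, 0 on percentiles and 2 to 3 without 1 array. At E9.5 (1) it was 0 in the joint fit, 14 with a trend, 0 on percentiles, 2 with the replicate block, 0 with the covariate and 0 to 54 without 1 array, with 54 reached without heterozygote replicate 3 and 0 without any of the wild types. At E12.5 (0) it was 40 in the joint fit and 1 with a trend. For the average (0) it was 1 without E8.5, 5 without E12.5, 6 on percentiles and 0 to 51 without 1 array (51 without E8.5 wild-type replicate 1), and for liver minus embryo (1) it was 0 without any 1 stage, 5 on percentiles, 0 with the replicate block and 0 to 68 without 1 array (68 without the same array). Same-numbered deviations correlated at 0.177, 0.134 and 0.0971 at E8.5, where each sample was closest to its own number, and at -0.393 to 0.0992 at the other stages, so the numbers were not taken as pairs. The replicate block changed no member's call, and it gave Gata4 at E8.5 an adjusted p of 0.839 (unadjusted 0.0279). The planned normexp and quantile normalization with a detection filter was not run, because the unnormalized columns match no sample label. The 3 arrays per group limit what small differences can show, and the genotype differences of Gata1 in embryos and Gata4 in livers are at levels within the range of the olfactory receptors.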
